A study of Mus musculus with 11 samples.

Results

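All CD4 T cell arrays of the lacrimal gland were set against the arrays of splenic T cells. The members are the 11 arrays of the series: 9 from the gland and 2 from the spleen. Every animal was a male NOD mouse 16 weeks old, with no treatment or engineered allele named in the labels; the NOD strain spontaneously develops immune infiltrates in the tear gland and is used as a model of Sjögren's syndrome. Gland cells came as 3 sorted subsets with 3 arrays each: LG_naïve cells, sorted as negative for PD-1 and for ICOS, and the effector conventional (LG_eTconv) and effector regulatory (LG_eTreg) cells, each sorted as high for these activation receptors. The design text gives the same gate for LG_eTconv and LG_eTreg. Spl_CD4 is total CD4 and Spl_CD8 total CD8 T cells from spleens of the same animals, with 1 array per type. The number of mice per array, and whether arrays came from separate mice or pools, are not stated in the sources used here, so the spread between arrays may be technical.

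A gene was counted as higher in the gland when its 9 gland values all lay above both spleen values, and as lower when all 9 lay below both. Size was the mean of the 9 gland arrays minus Spl_CD4 on the log2 scale (1 is 2-fold). Because each spleen type has 1 array, nothing measures the spread in spleen, and these comparisons are descriptions without a test. Several properties differ together between the groups: the tissue, the sort gate (subsets against total CD4 cells), and the enzyme digestion, which the labels describe for gland suspensions. Their parts in a difference cannot be told apart. In a sorted population, a change in the share of a cell type and a change of RNA per cell cannot be told apart either.

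T cells that enter an inflamed tissue meet antigen, cytokines and local cells, and those that stay lose the receptors that lead cells back to blood and lymph. Immediate early genes, such as Fos and Egr1, are switched on soon after antigen receptor signals, and can also be switched on by enzyme digestion of a tissue. Secretory cells of the lacrimal gland make tear proteins in large amounts, and their RNA can accompany cells prepared from the gland. Sorted splenic cells can in turn carry RNA of B cells, red cells, neutrophils and macrophages.

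The arrays carried the T cell genes that the labels call for. Cd3e, part of the T cell receptor complex, lay between 9.19 and 9.78 on the 9 gland arrays and at 9.45 and 9.56 on Spl_CD4 and Spl_CD8. Cd4 lay between 8.35 and 9.02 in the gland, at 8.49 on Spl_CD4 and at 2.47 on Spl_CD8. Cd8b1, the CD8 beta chain, was at 6.43 on Spl_CD8 and between 0.62 and 1.83 in the gland. Cd8a was not absent from the gland on the probe set used. There the LG_eTconv arrays read 6.83, 6.47 and 6.16, against 4.45 on Spl_CD4 and 9.35 on Spl_CD8. Further probe sets of Cd8a had gland means of 3.93 and 0.64, against 3.58 and 0.20 on Spl_CD4 and 9.32 and 6.35 on Spl_CD8. The probe set at 0.64 exceeded background on 2 of the 11 arrays, so the probe sets disagree. Over all genes, the signal on LG_naïve arrays correlated with Spl_CD4 at 0.961 to 0.967, LG_eTreg at 0.951 to 0.956 and LG_eTconv at 0.948 to 0.950 (across genes, which are not independent). From 9477 to 11200 of 17097 genes lay above the background limit of an array, which is its brightest nonspecific control probe set and ran from 0.945 to 1.70. The ribosomal RNA control was strongest on LG_eTreg 3 (6.69) and LG_naïve 1 (6.63), and the gap between the ends of the actin control was widest on LG_eTconv 1 (3.35).

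Of 17097 genes, 911 (5.33%) were above both spleen arrays on all 9 gland arrays and 1122 (6.56%) were below both. With a mean difference to Spl_CD4 of at least 2-fold, 370 (2.16%) were above and 349 (2.04%) below. The median difference over all genes was −0.01. Many of the separations were narrow: the median gap between the nearest gland and the nearest spleen array was 0.16 for the genes above and 0.15 for those below. Of the 911 genes, 591 exceeded background on all 9 gland arrays and 174 were at background on all 11 arrays. For the 1122, 948 exceeded background on both spleen arrays and 102 were at background on all 11. At the 2-fold threshold, Nek4 (difference 1.0, from 2.07 on Spl_CD4 to a gland mean of 3.08) lay just inside and Cxcl16 (difference 0.996, from 1.12 to 2.12) just outside. The gene lists below held 104 of the 911 genes and 34 of the 1122, and 80 of the 370 and 22 of the 349 past 2-fold, so most separated genes were in no list.

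**Figure D1:**
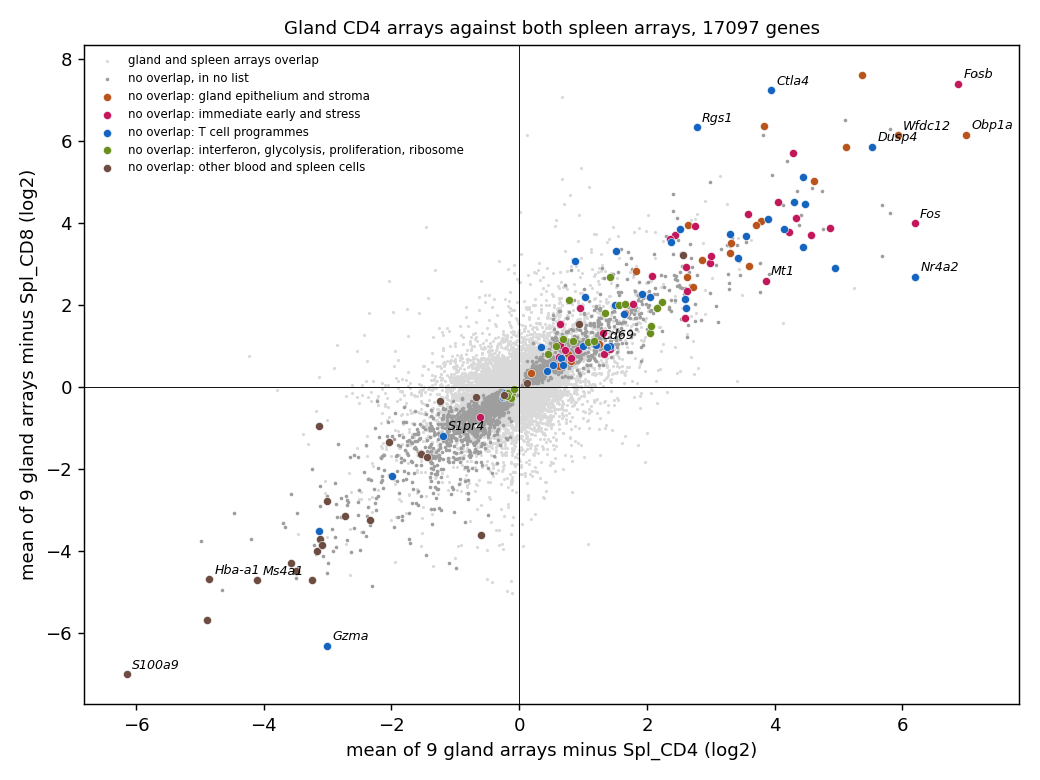
Each point is 1 gene; the horizontal axis is the mean of the 9 gland arrays minus Spl_CD4 and the vertical axis the same mean minus Spl_CD8, both in log2. Coloured and dark grey genes have no overlap between the 9 gland and 2 spleen arrays. Obp1a, Fosb, Nr4a2 and Fos reach 6.19 to 7.0 on the horizontal axis and S100a9 lies lowest, at −6.14.

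**Figure D2:**
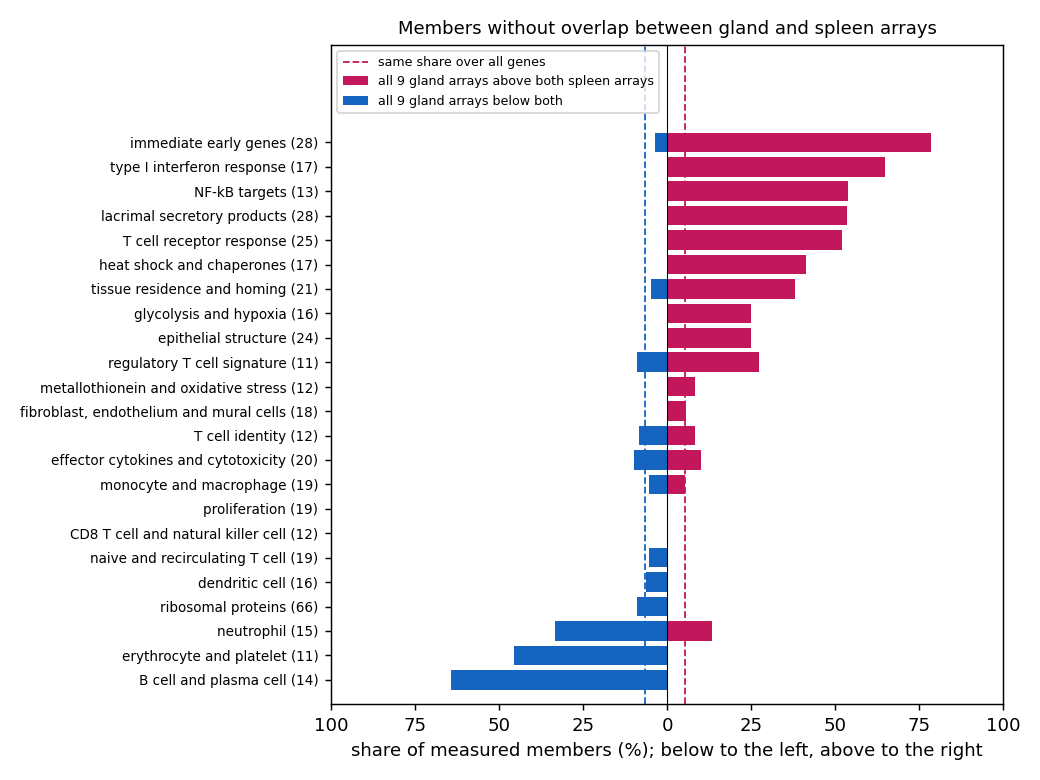
Bars give the share of measured members (number in brackets) of each of 23 gene lists whose 9 gland values all lie above (right, red) or below (left, blue) both spleen values, in percent. Dashed lines mark the shares over all genes, 5.33% and 6.56%. Immediate early, interferon, NF-kB and secretory lists extend furthest to the right, and B cell and red cell lists furthest to the left.

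Tear protein transcripts of the gland epithelium were on every gland array, in all 3 sorted T cell subsets. Of 28 measured lacrimal secretory products 15 (53.6%, against 5.33% of all genes) were above both spleen arrays and 0 below. By at least 2-fold 12 were above. With dim values set to the background limit the count above was 11, and 6 of the 28 were at background on all 11 arrays. The median difference to Spl_CD4 was 1.28. Obp1a, an odorant-binding protein of the lipocalin family, had the largest difference of all genes named here, 7.0 (128-fold). It read 9.21, 9.59 and 9.47 in LG_naïve, 7.76, 8.34 and 8.62 in LG_eTconv, 8.27, 7.82 and 9.19 in LG_eTreg, and 1.70 and 2.55 on Spl_CD4 and Spl_CD8. The nearest gland array stood 5.21 above the nearest spleen array. Wfdc12 and Wfdc18, small secreted proteins with a whey acidic protein domain, differed from Spl_CD4 by 5.93 and 5.11. Sval2, a seminal vesicle antigen-like protein, differed by 5.37, and the milk and tear protein lactoferrin (Ltf) by 4.62. Lpo, lactoperoxidase, lay between 4.19 and 7.07 in the gland against 1.38 and 1.13, and Pigr, which carries immunoglobulin A across epithelium, between 2.84 and 6.29 against 1.20 and 1.24.

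Not all secretory genes were dark in spleen. Scgb1b2, a secretoglobin, read 8.47 on Spl_CD4 and 7.49 on Spl_CD8 against 10.09 to 10.54 in the gland. Pip, prolactin-induced protein, read 5.14 and 2.62 against 8.27 to 9.53, and Scgb2b20 read 5.72 and 5.48 against 9.15 to 9.84. Some secretoglobin genes are near-identical to each other, so a probe set may detect more than 1 of them. Ltf, Lpo, Pigr, Scgb1b2, Pip and Scgb2b20 were chosen after their values were seen.

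The epithelial signal varied among arrays, and the list levels of LG_eTreg overlapped those of both other subsets. LG_naïve was the highest subset for 12 of the 15 separated secretory genes, LG_eTconv for 1 and LG_eTreg for 2. The mean level of the 28 genes ran from 3.78 to 4.90 over the LG_naïve arrays, 3.05 to 3.64 over LG_eTconv and 3.33 to 4.17 over LG_eTreg, against 1.56 on Spl_CD4 and 1.37 on Spl_CD8. The number above background ran from 13 to 20 in the gland and was 8 and 13 in spleen. By limma's F test across the 3 gland subsets, which called 2666 (15.6%) of all genes at an adjusted p under 0.05, 2 of the 15 genes differed: Ltf (adjusted p = 0.0141) and Pigr (0.0144). The call of Ltf ended without LG_eTconv 3 (adjusted p = 0.0521). With the replicate number as a block, Wfdc12 (0.00611), Wfdc18 (0.0252) and Sval2 (0.0491) passed limma's threshold as well. Obp1a missed the threshold (adjusted p = 0.0951) but passed it without LG_eTreg 3 (0.0160), whose 9.19 was the highest value of its subset. The part of epithelial RNA in the other differences between gland and spleen was not tested.

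Structural genes of epithelium gave a smaller signal. Of 24 such genes 6 (25%, against 5.33% of all genes) were above both spleen arrays and 0 below. The median difference was 0.44, and 4 were above with dim values set to the background limit. Keratin 8 (Krt8) read 4.76, 7.21 and 6.42 in LG_naïve, 5.14, 4.75 and 4.12 in LG_eTconv and 5.08, 4.95 and 4.87 in LG_eTreg, against 1.65 and 2.30. Keratin 18 (Krt18) had subset means of 6.20, 3.47 and 4.89 in the same order and differed among them (adjusted p = 0.00112). The epithelial transcription factor Ehf was at least 5.61-fold above Spl_CD4, where it was at background, and overlapped spleen with dim values set to that limit. The epithelial splicing regulator Esrp1 differed by 2.87. Bounds written as at least N-fold use the background limit in place of a signal at or below it. Epcam, a cell adhesion protein of epithelium, overlapped spleen: it read 5.49 to 5.96 in LG_naïve and 5.68 to 6.85 in LG_eTreg, but 3.04 to 3.70 in LG_eTconv, around the 3.30 of both spleen arrays. Fibroblast, endothelial and mural genes were above both spleen arrays for 1 of 18 (5.56%), near the 5.33% of all genes, and below for 0. The 1 gene was Sparc, a matrix protein between 1.76 and 4.62 in the gland against 1.39 and 1.25. The median difference of that list was 0.35, or 0.04 with dim values set to the background limit.

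Immediate early genes were the list with the largest share of separated members. Of 28 measured, 22 (78.6%, against 5.33% of all genes) were above both spleen arrays on all 9 gland arrays and 1 below. By at least 2-fold 17 were above, and the median difference was 2.48. Without LG_naïve 1, LG_eTconv 1 and LG_eTreg 3, and under 5 other scalings and probe set choices, the count above was 22 or 23. The list median was 2.31 in LG_naïve, 2.33 in LG_eTconv and 2.36 in LG_eTreg. Single members did differ: 12 of the 28, and 10 of the 23 separated ones, passed the F test among gland subsets. The highest subset was LG_naïve for 10 of the 23 separated genes, LG_eTconv for 7 and LG_eTreg for 6. The part of the digestion in these differences cannot be told apart from that of the tissue.

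Fosb, an AP-1 subunit, read 8.23, 8.36 and 8.43 in LG_naïve, 8.56, 8.71 and 8.68 in LG_eTconv and 8.18, 7.92 and 8.39 in LG_eTreg. It was at background on Spl_CD4 (1.51) and Spl_CD8 (0.99), which put the gland at least 113-fold higher than Spl_CD4. Fos, its relative, lay between 9.09 and 9.65 on all gland arrays, at 3.22 on Spl_CD4 and at 5.41 on Spl_CD8, a difference of 6.19 (73.0-fold). The lowest gland array stood 3.68 above Spl_CD8, and the test among subsets missed its threshold (adjusted p = 0.428). Klf4, a zinc finger factor, differed by 4.86 and was highest in LG_eTconv (7.75, 8.04 and 8.13; adjusted p = 0.0171, or 0.0691 and 0.0707 without LG_eTconv 2 or LG_eTconv 3). Sik1, a salt-inducible kinase, lay between 7.69 and 8.27 against 3.46 and 4.33. Atf3 (4.33), Maff (4.22), Ppp1r15a (4.05) and Jun (3.58), named after their values were seen, had the next largest differences, and Ier5 was the only member below both spleen arrays (−0.61). Dusp1, a phosphatase that turns off stress kinases, read 9.65 to 9.67 in LG_naïve, up to 10.19 in LG_eTconv and 9.98 to 10.01 in LG_eTreg, against 7.56 and 6.32. Egr1 was already bright in spleen, at 8.44 and 8.46, and stood at 8.93 to 9.65 in the gland.

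The spleen arrays were not equal to each other for these genes. Fos was higher on Spl_CD8 than on Spl_CD4 by 2.19 and Nr4a2 by 3.52, whereas Dusp1 was lower by 1.24. The list as a whole was brighter on Spl_CD8 for 11 of 28 genes.

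Promoters of these genes were searched for the response elements of the pathways that switch them on. The RefSeq window ran from 250 bases before to 50 after the gene start on build GRCm38.p6, and both strands were read. The cyclic AMP response element, TGACGTCA, which binds CREB and ATF factors, was in 5 of 30 promoters of 24 immediate early genes (16.7%) and in 1.79% of 32851 promoters of all genes. The AP-1 site, TGANTCA, was in 1 of 30 (3.33%, against 7.81%) and the serum response element in 0 of 30 (against 1.63%). No promoter of Egr1, Ier2, Cebpd or Sik1 was available to search, and sites outside the window were not read. These shares therefore do not show that immediate early genes lack an element. The heat shock element, GAANNTTC, was in 8 of 19 promoters of 14 heat shock genes (42.1%, against 7.86%). The NF-kB site was in 9 of 16 promoters of 11 NF-kB target genes (56.2%, against 8.46%). Among the 933 promoters of genes above both spleen arrays the shares were 3.64% for the cyclic AMP element, 8.25% for the AP-1 site, 2.36% for the serum response element, 6.75% for the heat shock element and 11.7% (109 promoters) for the NF-kB site. Among the 17065 promoters of all genes on the array they were 2.50%, 6.51%, 1.41%, 6.39% and, for the NF-kB site, 10% (1707 promoters). A match is a run of letters and no evidence of binding in these cells.

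The 250 bases before the start of 6 of these genes, chosen because they hold a match, are printed with the match in capitals. Ppp1r15a, which dephosphorylates a translation factor after stress, lies on the minus strand (chr7:45526269-45526518), and its cyclic AMP element begins 12 bases before the start. Dusp1 (chr17:26508473-26508722, minus strand) has one that begins 143 bases before it.
Ppp1r15a: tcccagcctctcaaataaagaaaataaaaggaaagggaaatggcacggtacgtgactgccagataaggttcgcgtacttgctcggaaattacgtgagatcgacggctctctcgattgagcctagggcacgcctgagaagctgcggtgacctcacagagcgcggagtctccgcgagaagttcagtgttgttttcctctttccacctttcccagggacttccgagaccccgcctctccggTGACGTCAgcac
Dusp1: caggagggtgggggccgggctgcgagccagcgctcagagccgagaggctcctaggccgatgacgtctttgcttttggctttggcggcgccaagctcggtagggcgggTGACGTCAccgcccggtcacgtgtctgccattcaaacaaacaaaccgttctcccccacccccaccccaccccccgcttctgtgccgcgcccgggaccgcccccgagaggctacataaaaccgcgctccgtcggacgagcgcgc
Hspa1b (chr17:34959239-34959488, minus strand), the inducible heat shock protein 70, has a heat shock element that begins 104 bases before the start, and Hspb1 (chr5:135887669-135887918, plus strand), a small heat shock protein, has 2, at 117 and 97 bases.
Hspa1b: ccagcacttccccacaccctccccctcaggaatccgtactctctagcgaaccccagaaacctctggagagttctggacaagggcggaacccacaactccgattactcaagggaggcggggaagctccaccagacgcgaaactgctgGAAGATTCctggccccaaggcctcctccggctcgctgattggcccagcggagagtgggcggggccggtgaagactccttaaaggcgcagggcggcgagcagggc
Hspb1: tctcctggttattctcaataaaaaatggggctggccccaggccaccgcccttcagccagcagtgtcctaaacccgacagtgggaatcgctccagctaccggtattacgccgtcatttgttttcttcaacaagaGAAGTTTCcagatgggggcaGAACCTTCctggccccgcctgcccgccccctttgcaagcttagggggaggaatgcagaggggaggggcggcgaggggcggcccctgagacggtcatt
Nfkbia (chr12:55492648-55492897, minus strand), the NF-kB inhibitor that NF-kB itself induces, has an NF-kB site 29 bases before the start. Tnfaip3 (chr10:19015411-19015660, minus strand), an enzyme that ends NF-kB signalling, has 2, at 125 and 12 bases.
Nfkbia: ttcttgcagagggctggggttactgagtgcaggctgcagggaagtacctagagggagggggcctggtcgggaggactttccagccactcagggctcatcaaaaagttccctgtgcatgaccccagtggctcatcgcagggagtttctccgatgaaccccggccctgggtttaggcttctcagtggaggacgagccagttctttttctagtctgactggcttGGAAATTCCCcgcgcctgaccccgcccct
Tnfaip3: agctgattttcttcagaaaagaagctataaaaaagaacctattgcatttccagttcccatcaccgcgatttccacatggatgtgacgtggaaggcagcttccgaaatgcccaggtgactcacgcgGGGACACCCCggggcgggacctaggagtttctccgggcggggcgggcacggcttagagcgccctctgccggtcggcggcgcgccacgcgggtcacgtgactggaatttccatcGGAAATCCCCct
None of the printed matches overlapped a match to another of the 5 motifs.

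Stress genes beyond the immediate early set were higher in part. Of 17 heat shock and chaperone genes 7 (41.2%, against 5.33% of all genes) were above both spleen arrays and 0 below. The median difference was 0.55. The count above was 6 with dim values set to the background limit and 10 without LG_naïve 1, LG_eTconv 1 and LG_eTreg 3. Hspa1b, whose promoter is printed above, read 8.13, 9.23 and 9.39 in LG_naïve, 7.21, 8.81 and 9.10 in LG_eTconv and 7.91, 9.33 and 9.36 in LG_eTreg, against 4.42 and 3.01 in spleen. It differed from Spl_CD4 by 4.29 (19.6-fold), and the array numbered 1 was the lowest of its subset each time. Its near-identical neighbour Hspa1a was not analysed by itself here, and the signal may include both. Bag3, a partner of heat shock protein 70, differed by 2.44, and Cryab, a small heat shock protein also made by epithelium, by 2.09. Hspb1 was at background on Spl_CD4 and at least 1.45-fold higher in the gland, with a gap of 0.02 to Spl_CD8 that closed under 3 of the alternative settings. Of 12 metallothionein and oxidative stress genes 1 was above both spleen arrays (8.33%, against 5.33% of all genes) and 0 below. That gene, Mt1, a metal-binding protein, was at least 11.8-fold higher, with subset means of 6.11, 4.40 and 4.84 (F test adjusted p = 0.00557).

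Genes downstream of the T cell receptor were above both spleen arrays for 13 of 25 (52.0%, against 5.33% of all genes). They were below for 0 and overlapping for 12, with a median difference of 1.55. The subset medians were 0.52 in LG_naïve, 2.40 in LG_eTconv and 1.79 in LG_eTreg, and 16 of the 25 differed among subsets by the F test. LG_eTconv was the highest subset for 9 of the 13. The nuclear receptors of the Nr4a family, which restrain activated T cells, separated for all 3 members. Nr4a3 lay between 9.28 and 9.82 on the gland arrays and at 6.13 and 6.41 in spleen, a difference of 3.43 (10.8-fold), and the test among subsets missed its threshold (adjusted p = 0.363). Nr4a1 lay between 5.99 and 7.72 against 2.42 and 3.45. Nr4a2 read 6.75, 7.17 and 7.0 in LG_naïve, 8.58, 8.66 and 8.59 in LG_eTconv and 8.50, 8.81 and 8.49 in LG_eTreg, against 1.86 on Spl_CD4 and 5.38 on Spl_CD8. Its difference to Spl_CD4 was 6.20 but to Spl_CD8 2.68, and it differed among subsets (adjusted p = 0.000106).

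Dusp4, a phosphatase of the ERK kinases, read 4.40, 3.58 and 4.44 in LG_naïve and 8.23 to 8.82 on the 6 effector arrays, against 1.56 and 1.23 (at least 46.1-fold over all gland arrays; adjusted p = 1.47e-05). Ccl3, a chemokine released by activated T cells, was at least 19.2-fold higher and read 3.95 to 5.33 in LG_naïve, 5.47 to 6.47 in LG_eTconv and 6.40 to 6.79 in LG_eTreg. Spry1, an inhibitor of receptor signalling chosen after its values were seen, had means of 2.52, 8.10 and 7.07 against 2.0 and 1.81, with its lowest LG_naïve array level with Spl_CD4 to 2 decimals.

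NF-kB targets were higher on all gland arrays for 7 of 13 genes (53.8%, against 5.33% of all genes) and lower for 0. The median difference was 0.87. Tnfaip3 read 8.96 to 9.10 in LG_naïve, 9.15 to 9.43 in LG_eTconv and 9.28 to 9.40 in LG_eTreg, against 5.93 and 5.51, a difference of 3.31 (9.89-fold). Nfkbia read 6.66, 6.91 and 6.80 in LG_naïve, 7.86, 8.32 and 8.27 in LG_eTconv and 7.50, 7.49 and 7.31 in LG_eTreg, against 5.08 and 3.93. It differed among subsets (adjusted p = 0.000851), as did Nfkbid (difference to Spl_CD4 1.92; adjusted p = 0.00791), another inhibitor of the pathway. Nfkbiz, a nuclear member of the same inhibitor family, differed from Spl_CD4 by 1.37.

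**Figure D3:**
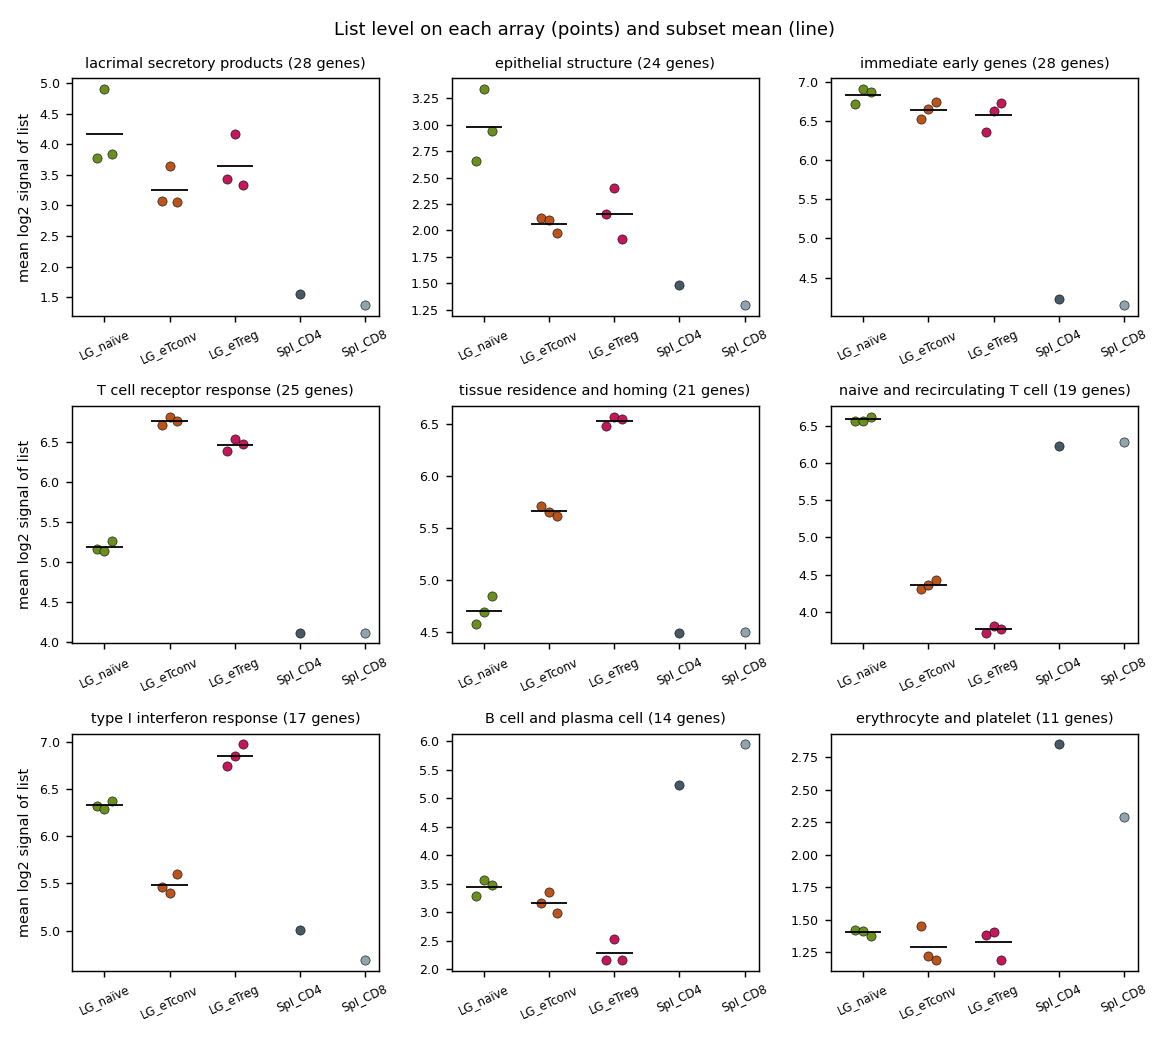
Each point is the mean log2 signal of 1 list on 1 array, for 9 of the lists; lines are means of 3 arrays. Immediate early genes lie between 6.36 and 6.91 on all gland arrays against 4.23 and 4.15 in spleen. The receptor response, residence and recirculation lists differ between LG_naïve and the effector subsets. The interferon list is lowest in LG_eTconv and highest in LG_eTreg, with LG_naïve between them.

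Genes of tissue residence separated in part, and most of them were highest in LG_eTreg. Of 21 measured, 8 (38.1%) were above both spleen arrays and 1 (4.76%) below, against 5.33% and 6.56% of all genes. The gene below was Qpct, an enzyme that modifies peptide ends (−1.99). The median difference of the list was 0.69. The subset medians were 0.37, 0.64 and 1.78 in LG_naïve, LG_eTconv and LG_eTreg. Cd69, which removes the egress receptor S1PR1 from the cell surface, lay between 7.72 and 8.24 in the gland against 6.81 and 6.99. Its difference to Spl_CD4 was 1.21 (2.31-fold), and the F test across gland subsets missed the threshold (adjusted p = 0.273). Rgs1, which dampens chemokine receptor signals, read 6.59 to 7.07 in LG_naïve, 6.94 to 7.86 in LG_eTconv and 8.01 to 8.68 in LG_eTreg, against 4.79 on Spl_CD4 and 1.23 on Spl_CD8. Fosl2, an AP-1 subunit, lay between 8.99 and 9.62 against 4.37 and 6.41. Bhlhe40, a transcription factor of cytokine-producing T cells, had means of 7.05, 9.93 and 9.19 against 4.58 and 4.89 (adjusted p = 1.98e-05).

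For other residence genes LG_naïve lay near spleen (Rgs16 and Ccr8) or below it (Itgae and Cxcr6). Rgs16 read 2.67, 3.24 and 2.76 in LG_naïve and 6.53 to 7.18 on the effector arrays, against 1.94 and 1.81. Ccr8, a chemokine receptor of tissue regulatory and type 2 T cells, was at background on the LG_naïve arrays (0.51 to 0.82) and both spleen arrays (0.13 and −0.08), and lay between 5.79 and 6.80 on the effector arrays. Its separation in LG_naïve is therefore one of values below the background limit. Itgae, the integrin chain that binds E-cadherin, overlapped: it read 7.63 to 7.81 in LG_eTreg, 3.07 to 4.07 in LG_eTconv and 1.86 to 2.57 in LG_naïve, around 3.88 and 5.21 in spleen. Cxcr6, a chemokine receptor of resident T cells, was likewise above spleen (5.86 and 6.28) in LG_eTreg alone, at 6.86 to 7.27, and at 1.97 to 3.23 in LG_naïve.

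Egress and recirculation genes split the gland subsets to either side of spleen. Of 19 measured, 0 were above and 1 (5.26%) below both spleen arrays, against 5.33% and 6.56% of all genes. By the F test 17 of the 19 differed among gland subsets, against 15.6% of all genes. The median difference to Spl_CD4 was 0.29 in LG_naïve, −2.07 in LG_eTconv and −2.76 in LG_eTreg. S1pr1, the receptor that guides T cells out of tissue, read 6.37, 6.11 and 6.38 in LG_naïve, 4.04, 3.95 and 4.20 in LG_eTconv and 3.31, 2.78 and 3.39 in LG_eTreg, against 5.76 and 5.50. Klf2, the transcription factor that maintains S1pr1, read 7.64, 7.06 and 7.47 in LG_naïve and 3.21 to 4.86 on the effector arrays, against 7.0 and 6.62. So the LG_naïve arrays lay above both spleen arrays for S1pr1, Klf2 and Cd69 alike. The member below spleen was S1pr4, a related receptor, at 5.46 to 5.70 in LG_naïve, 4.24 to 4.61 in LG_eTconv and 5.46 to 5.71 in LG_eTreg, against 6.37 on each spleen array.

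The LG_naïve arrays can also be set against spleen by themselves. With the 3 LG_naïve arrays alone, 2843 genes (16.6%) lay above both spleen arrays and 2898 (17.0%) below. With 3 arrays in place of 9 more genes separate by the order of values alone, so these counts are not set against the 911 and 1122. Past 2-fold the LG_naïve arrays had 651 genes above and 561 below.

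Most effector and regulatory genes overlapped between gland and spleen arrays. Of 20 effector cytokine and cytotoxicity genes 2 were above (10%) and 2 below (10%), against 5.33% and 6.56% of all genes. The median difference was 0.29, and 17 of the 20 differed among subsets by the F test. Il10, an anti-inflammatory cytokine, read 8.80, 9.11 and 9.03 in LG_eTreg, 5.37, 5.12 and 5.26 in LG_eTconv and 1.39, 1.46 and 1.61 in LG_naïve, against background values of 0.80 and 0.12 in spleen (adjusted p = 5.66e-08). One LG_naïve array was also at background. Fasl, a death ligand, lay between 5.19 and 6.73 against 4.33 and 2.53. Gzma, a granule protease, was lower than Spl_CD4 by 3.02, with LG_eTreg 3 at 5.07 next to 5.09 on Spl_CD4. Il13 was at background on all 11 arrays, so no order can be read from its separation. Ifng, the interferon gamma gene, overlapped: LG_naïve arrays (4.17 to 4.70) lay around Spl_CD4 (4.49) and Spl_CD8 (4.86), and the effector arrays at 8.57 to 9.42. Gzmb, granzyme B, was at 5.26 to 5.94 in LG_eTreg and at 0.48 to 1.21 in the other gland subsets, against 3.29 and 3.51.

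Among 11 regulatory T cell genes 3 were above (27.3%) and 1 below (9.09%), against 5.33% and 6.56% of all genes. The median difference of these 11 was 0.63. Ctla4, an inhibitory receptor, was high in every subset: it read 8.12 to 8.42 in LG_naïve, 9.84 to 10.06 in LG_eTconv and 10.19 to 10.32 in LG_eTreg, against 5.57 on Spl_CD4 and 2.27 on Spl_CD8. Icos, whose protein was part of the sort gate, read 8.50 to 8.77 in LG_naïve against 8.38 and 7.22 in spleen and 9.64 to 9.95 on the effector arrays. Entpd1, an ectoenzyme that degrades extracellular ATP, had a gap of 0.02 to Spl_CD4 that closed with the mean of its probe sets. Klrg1, an inhibitory receptor of differentiated cells, was below spleen (4.83 and 5.22) even in LG_eTreg (3.34 to 3.65), and at 0.55 to 1.09 in the other subsets. Foxp3, the lineage factor of regulatory T cells, read 8.21, 8.13 and 8.21 in LG_eTreg and 5.77 on Spl_CD4, with the other gland arrays between 2.86 and 4.95. General T cell genes overlapped for 10 of 12, and 15064 of all 17097 genes did. Cd28 was above by 0.33 and Thy1 below by 0.25, each with a gap of at most 0.09, and Thy1 lost its separation after quantile normalization.

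**Figure D4:**
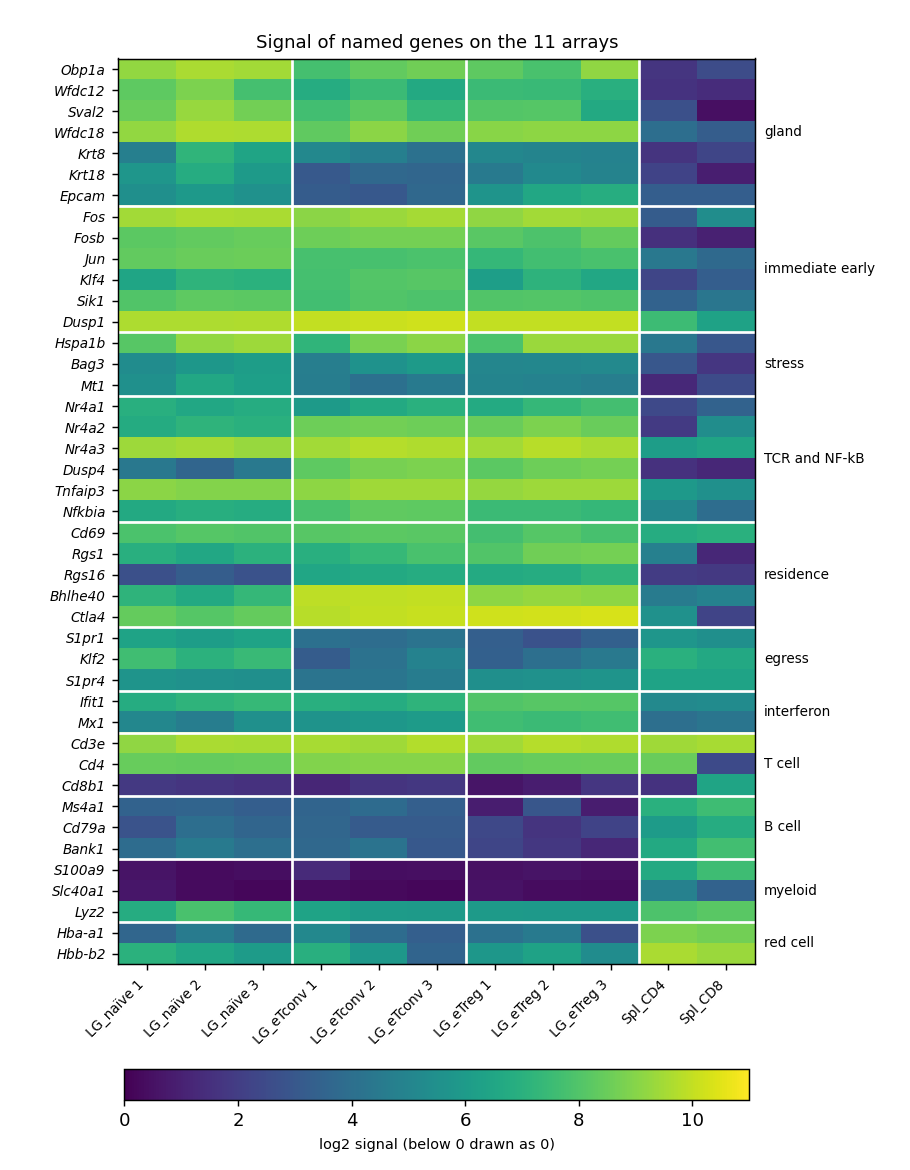
Colour gives the log2 signal (0 to 11) of 43 genes on the 11 arrays, grouped by role; white lines part the subsets and spleen. Rows of secretory and immediate early genes change at the line between gland and spleen, the S1pr1 and Klf2 rows change at the line between LG_naïve and LG_eTconv, and myeloid, red cell and B cell rows are bright on the 2 spleen arrays.

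Type I interferon response genes were higher on the gland arrays for 11 of 17 (64.7%, against 5.33% of all genes) and lower for 0. The median difference was 1.21. The subset medians were 1.42 in LG_naïve, 0.65 in LG_eTconv and 1.68 in LG_eTreg, and LG_eTreg was the highest subset for 10 of the 11. Of the 11 genes 9 differed among subsets by the F test. Ifit1, which binds foreign RNA, read 6.82, 7.17 and 7.37 in LG_naïve, 6.93, 6.80 and 7.15 in LG_eTconv and 8.03, 8.15 and 8.11 in LG_eTreg, against 5.16 and 5.32. Mx1, an antiviral GTPase, had means of 5.10, 5.84 and 7.59 against 4.02 and 4.26. Usp18, which removes ISG15 from proteins and limits interferon signalling, was lowest in LG_eTconv (4.98 to 5.42), still above 4.07 and 4.65. Ifit3 had its lowest value, 5.56, in LG_eTconv, a gap of 0.12 to Spl_CD8.

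Glycolysis and hypoxia genes were above spleen for 4 of 16 (25%, against 5.33% of all genes), by modest amounts. The median difference was 0.63. Slc2a1, the main glucose transporter, lay between 8.78 and 8.98 on all 9 gland arrays against 8.05 and 7.77. Pkm, pyruvate kinase, differed by 0.68 and Gapdh by 0.45. Hk2, a hexokinase, was highest in LG_eTconv, at 5.39 to 5.94, and at 3.45 to 4.17 elsewhere in the gland against 3.10 and 2.65 (adjusted p = 0.000795). Proliferation genes separated for 0 of 19, against 5.33% above and 6.56% below among all genes. With effector arrays alone 2 of the 19 were above and 0 below. The LG_naïve median of the list was below Spl_CD4 by 1.25 and the LG_eTreg median above it by 0.27.

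The largest negative difference was that of S100a9. This gene, a calcium-binding protein of neutrophils, was at or below background on all 9 gland arrays (0.32 to 1.33) and at 6.70 and 7.57 on the spleen arrays, which puts the gland at least 41.1-fold lower than Spl_CD4. S100a8, its partner, was at least 14.8-fold lower. Of the 15 neutrophil genes, these among them, 5 (33.3%) lay below both spleen arrays, against 6.56% of all genes. Above both lay 2 (13.3%), against 5.33%, and the median difference was 0.03. With dim values set to the background limit 2 were below and 0 above, so most of these separations were among values near background. From 1 to 4 of the 15 exceeded background on a gland array, 4 on Spl_CD4 and 6 on Spl_CD8. Cxcl2, a chemokine counted in that list, was above spleen and at least 2.47-fold higher, with 3.71 to 4.32 in LG_eTreg, but overlapped spleen with dim values set to the background limit. Camp, an antimicrobial peptide gene of neutrophil granules, was at background on all gland arrays and on Spl_CD4.

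B cell genes were lower on every gland array for 9 of 14 (64.3%, against 6.56% of all genes) and higher for 0. The median difference was −3.05. Ms4a1, which encodes CD20, read 3.46, 3.56 and 3.27 in LG_naïve, 3.56, 3.85 and 3.32 in LG_eTconv and 0.90, 2.92 and 0.89 in LG_eTreg, against 6.97 and 7.58. Cd79a and Cd79b, the signalling chains of the B cell receptor, differed by −3.08 and −3.57, Bank1, a B cell scaffold protein, by −3.49 and Cr2, a complement receptor, by −3.25. The mean level of the list was 3.28 to 3.57 in LG_naïve, 2.99 to 3.36 in LG_eTconv and 2.16 to 2.54 in LG_eTreg, against 5.23 on Spl_CD4 and 5.94 on Spl_CD8. Spl_CD8 was the brighter spleen array for 13 of the 14 genes. Of the 14, 8 to 12 exceeded background on a gland array, so B cell transcripts were lower in the gland but not absent. Cd74, an antigen presentation chaperone of B and dendritic cells, was the single dendritic cell list member below both spleen arrays, at 8.76 to 9.31 in LG_naïve and 7.07 to 7.95 on the effector arrays, against 9.58 and 9.69.

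Red cell genes were lower in the gland as well. Of 11 erythrocyte and platelet genes 5 (45.5%, against 6.56% of all genes) were below both spleen arrays and 0 above. The median difference was −1.22. With dim values set to the background limit 3 were below, and the median difference was −0.40. Hba-a1, alpha globin, lay between 2.71 and 5.13 in the gland against 8.82 and 8.66. Its near-identical copy Hba-a2 overlapped spleen, with a difference of −0.40, so the probe sets of this pair disagree. Hbb-b2, a beta globin, read 3.53 on LG_eTconv 3 and up to 7.01 on LG_naïve 1, against 9.60 and 9.36. Slc4a1, the red cell anion exchanger, Alas2, which starts heme synthesis in red cells, and Ppbp, a platelet chemokine, were at background on all gland arrays and at 1.65 to 3.84 in spleen. The separation of Slc4a1 was lost with the probe set of highest gland mean.

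Several further large negative differences are known from splenic red pulp and other myeloid cells. Slc40a1, the iron exporter ferroportin, was at background on all gland arrays (0.20 to 0.65) and at 4.82 and 3.45 in spleen, at least 11.2-fold lower. Spic, the transcription factor of red pulp macrophages, was above background on 1 of the 9 gland arrays (LG_naïve 2, 1.44) and at 3.63 and 2.67 in spleen. Ear3, an eosinophil-associated ribonuclease, was at least 6.59-fold lower, and Gpr34, a lysophospholipid receptor of myeloid cells, differed by −3.71. Ffar2, a receptor for short-chain fatty acids, lay between 0.53 and 1.63 against 5.81 and 4.58, but the probe set of highest gland mean ended the separation. The general macrophage list did not share this order, with a median difference of −0.13. Of its 19 genes 1 (5.26%) was above both spleen arrays and 1 (5.26%) below, near the 5.33% and 6.56% of all genes. The gene above was Cybb, a subunit of the phagocyte oxidase. The gene below was Lyz2, lysozyme (5.91 to 7.85 against 7.92 and 8.20). The level of the list reached 3.27 to 3.72 on LG_naïve arrays and 2.22 to 2.52 on effector arrays, against 3.02 and 2.80. The part that such cells play in the negative differences was not tested.

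Remaining genes with large negative differences were Ell3 (−4.65), an elongation factor, Terb1 (at least 3.98-fold lower), a meiotic telomere protein, and Dtx1 (−3.47), a regulator of Notch signalling. Dtx1 read 6.17, 6.12 and 6.28 in LG_naïve, 3.35 to 4.44 in LG_eTconv and 2.14 to 2.85 in LG_eTreg, against 7.69 and 7.31, so the gland subsets lay at different distances from spleen (adjusted p = 0.000134). Terb1 lost its separation with the probe set of highest gland mean. Ribosomal protein genes differed little: 6 of 66 were below both spleen arrays and 0 above, a share of 9.09% against 6.56% of all genes, with a median of −0.12. The count below was 2 after quantile normalization, 24 without LG_naïve 1, 31 without LG_naïve 1, LG_eTconv 1 and LG_eTreg 3, and 37 with effector arrays alone. Rpl35, Rps28, Rpl37a and Rpl30 each lost their separation under another scaling or probe set choice.

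Large positive differences outside the lists were of mixed kinds. Dnase1, a secreted DNA-degrading enzyme, read 7.09 to 8.37 in LG_naïve, 5.87 to 6.79 in LG_eTconv and 4.80 to 6.79 in LG_eTreg and was at background in spleen, at least 33.6-fold higher. Slc27a2, a fatty acid transporter, was at least 17.3-fold higher and likewise brightest in LG_naïve (5.65 to 7.55). For both, LG_naïve is also the subset with the highest secretory list level, 3.78 to 4.90, and whether they belong to that signal was not tested. Nupr1, a small stress-response protein, was at least 37.0-fold higher, with 7.40 to 7.97 in LG_naïve, 5.38 to 6.07 in LG_eTconv and 6.46 to 7.22 in LG_eTreg (adjusted p = 0.00267). Pawr, a regulator of apoptosis, had the other order: at least 32.2-fold higher, it read 7.14 to 7.64 in LG_eTconv and 5.38 to 6.21 in LG_naïve (adjusted p = 0.00346). Cdkn1a, the cell cycle inhibitor p21, read 7.80 to 8.16 in LG_eTreg and 5.09 to 5.54 in both other subsets, against 1.48 and 2.38 (at least 25.4-fold; adjusted p = 7.09e-06).

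Of the genes above spleen, 243 of 911 (26.7%) differed among gland subsets by the F test. Of those below, 144 of 1122 (12.8%) did, against 15.6% of all genes, and the difference between these shares was not tested. Among the genes above, LG_naïve was the highest subset for 314, LG_eTconv for 270 and LG_eTreg for 327. Of the genes below, LG_naïve was the subset nearest to spleen for 587, LG_eTconv for 248 and LG_eTreg for 287.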

How the data were processed

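The series holds 11 perfect-match arrays. Per the labels' protocols, gland cells were dissociated mechanically and with enzymes, sorted into lysis buffer, and their RNA was amplified and labelled with biotin; 1 sample had an RNA integrity number of 7.8 and is not tied to a group. Values were deposited on the log2 scale: the authors ran the RMA method in the Partek software, according to the submitters' processing notes. Versions and annotation are not given in the sources used here, and the log base is inferred from RMA. Array signals give no counts, so the number of arrays limits the precision.

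Of 45141 probe sets 104 were controls; of the others 28898 had 1 gene symbol, 551 several and 15588 none in the platform annotation, and the gene IDs of 28689 matched RefSeq. The probe set with the highest average of its gland mean and spleen mean stood for each of 17097 genes. Of 87 named genes above or below spleen, 36 had more than 1 probe set, and all probe sets separated the same way in 16 of them; 0 had probe sets called in opposite directions. No dim gene was left out. Where Spl_CD4 (or all 9 gland arrays) lay at or below the background limit, a fold is a bound against that limit.

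The 3 gland subsets were compared with limma 3.58.1 in R 4.3.3 (9 arrays, 6 residual degrees of freedom, moderated F test, Benjamini-Hochberg over 17097 genes, adjusted p under 0.05). In simulated data the F test called 50% of 100 genes shifted by 1 and 90% of 100 shifted by 2 in log2, with 9 false calls among 16897 unshifted genes. Replicate numbers are not stated to mark the same mice and were not used as pairs.

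The members and the 23 gene lists were chosen with earlier results of these data known. Named genes were the 15 largest positive and 15 largest negative differences to Spl_CD4 among separated genes whose brighter side exceeded background, up to 4 separated members of each list with the largest difference, and fixed genes; clone-like names were left out, and further names are marked as chosen after their values were seen. Of the fixed genes, 4 were not analysed here. Alternatives covered the probe set, normalization, values at background, dim genes, the arrays used on either side and each gland array left out.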

Additional observations from a re-analysis of the deposited data

Results flagged for a closer look

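For 15 list genes, all 3 arrays of 1 gland subset lay at least 1 above Spl_CD4 and all 3 of another at least 1 below it, with an F test among gland subsets under the threshold. These genes lay on opposite sides of the single Spl_CD4 array in different gland subsets, and the pooled comparison of 9 gland arrays hides them. Spl_CD8 was not part of this rule, and genes outside the lists and the fixed genes were not searched. Adjusted p-values are from limma's F test with 3 arrays per subset. That test was part of the rule, so the p-values are no separate support.

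For 4 genes LG_eTreg alone exceeded Spl_CD4. Gzmb, granzyme B, stood at 2.42 above Spl_CD4 in LG_eTreg, at −2.74 in LG_naïve and at −2.33 in LG_eTconv (adjusted p = 2.69e-06). Itgae, the E-cadherin-binding integrin, stood at 3.82 in LG_eTreg and at −1.57 in LG_naïve (adjusted p = 1.07e-05). Ccl5, a chemokine of cytotoxic cells, stood at 1.495 in LG_eTreg and at −1.45 in LG_naïve (adjusted p = 4.38e-06). Mmp9, a matrix protease, stood at 2.26 in LG_eTreg and at −1.20 in LG_eTconv (adjusted p = 4.36e-06).

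Both effector subsets exceeded Spl_CD4 and LG_naïve was below it for 8 genes, by their means. Il21, a cytokine that helps B cells, stood at 6.21 in LG_eTconv, 3.31 in LG_eTreg and −1.19 in LG_naïve (adjusted p = 9.73e-08). Tnfrsf4, the costimulatory receptor OX40, stood at 2.74, 2.97 and −1.33 in the same order (adjusted p = 1.07e-06). Tbx21, the lineage factor T-bet, stood at 1.67, 2.29 and −2.02 (adjusted p = 5.28e-05), and Nkg7, a granule protein, at 1.99, 2.46 and −2.33 (adjusted p = 7.69e-06). Nrp1, a semaphorin receptor, stood at 1.33, 1.0 and −1.22 (adjusted p = 1.44e-05), and Top2a, a topoisomerase of dividing cells, at 1.17, 1.37 and −1.54 (adjusted p = 0.000358). Ikzf2, the transcription factor Helios, stood at 0.52, 1.54 and −2.18 (adjusted p = 0.000116), and Cxcr3, an inflammatory chemokine receptor, at 0.70, 1.49 and −2.63 (adjusted p = 0.000197).

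LG_naïve exceeded Spl_CD4 and the effector subsets lay below it for Ccr9, a gut-homing chemokine receptor (2.20 in LG_naïve and −3.10 in LG_eTreg, adjusted p = 3.33e-06). The same order held for Klra17, a lectin-like receptor of dendritic cells (2.67 in LG_naïve and −2.27 in LG_eTconv, adjusted p = 3.76e-05), and Tyrobp, a signalling adaptor of myeloid cells (1.62 in LG_naïve and −2.13 in LG_eTreg, adjusted p = 5.39e-06). Beside the last pair, the mean level of the dendritic cell list was 5.02 to 5.14 on the LG_naïve arrays and 3.24 to 3.65 on the effector arrays, against 4.56 on Spl_CD4 and 4.33 on Spl_CD8, and its part in these values was not tested.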

How the results depend on the processing

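Of the 87 named genes above or below spleen, 84 kept their call with the probe set of highest gland mean, 82 with the mean of a gene's probe sets, 82 after quantile normalization, 86 after centring each array and 79 with dim values set to the highest background limit. Slc4a1 changed direction with the probe set of highest gland mean (0.0944). With dim values at the limit 577 genes lay above spleen. Against Spl_CD4 alone the counts were 2203 above, 2506 below and 612 below by at least 2-fold. With LG_naïve arrays alone 2843 were above and 2898 below, 651 and 561 past 2-fold, and with effector arrays alone 1823 and 2223, 771 and 724 past 2-fold. Fewer arrays let more genes separate by construction. With a difference of at least 2, 153 were above and 90 below. Leaving out each gland array in turn gave 967 to 1067 above, 1149 to 1414 below, 372 to 420 and 348 to 410 past 2-fold, and 2046 to 2552 genes that differed among gland subsets. Without LG_naïve 1, LG_eTconv 1 and LG_eTreg 3 together, a choice made after seeing the data, 1336 lay above and 1994 below, and the F test calls of Ltf, Pigr, Klf4 and Pawr ended (adjusted p = 0.0919, 0.0823, 0.0745 and 0.0681) while that of Obp1a arose (0.0176). The 1 array per spleen type limits every comparison with spleen.

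With the replicate number as a block (replicate block), 2572 genes differed among gland subsets, 2318 of them shared with the 2666 of the fit without it. Same-numbered arrays deviated together with correlations of −0.09 to 0.28, over 0.1 in 3 of 9 pairs, and pairing was taken only where all exceed 0.1. Between LG_eTconv and LG_eTreg each array correlated best with its own number (0.28, 0.08 and 0.18), a hint from the data and not from the design; this did not hold for all LG_naïve arrays.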

Other observations

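Heat shock genes shared an order among arrays. For 11 of the 17 measured, Hspa1b, Hspa5, Hspa8, Hspb1, Hsph1, Hsp90aa1, Dnaja1, Dnajb1, Dnajb4, Dnajb9 and Bag3, the array numbered 1 was the lowest of its subset in all 3 gland subsets. That order was found in 4.19% of all genes for the arrays numbered 1, 5.0% for those numbered 2 and 3.32% for those numbered 3. It was found in 8.01% of the genes above both spleen arrays. In Hspa1b the arrays numbered 1 read 8.13, 7.21 and 7.91 and the other 6 gland arrays 8.81 to 9.39, all above the 4.42 and 3.01 of spleen. The pattern was noticed in the data. The labels do not say that a replicate number marks a shared sort or day, and whether it does was not tested.

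Probe sets with no gene or several genes in the annotation were left out above. Of 16139 such probe sets, 829 lay above both spleen arrays on all gland arrays and 989 below, 252 and 396 of them by at least 2-fold.

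Of 19 monocyte and macrophage genes 6 differed among gland subsets by limma's F test, against 15.6% of all genes. Cd14, a lipopolysaccharide co-receptor, had means of 4.80 in LG_naïve, 1.72 in LG_eTconv and 3.38 in LG_eTreg, against 1.52 on Spl_CD4 and 1.76 on Spl_CD8. Cd68, a lysosomal protein of phagocytes, had 5.83, 3.38 and 3.78, against 2.96 and 3.72. Both genes were chosen after their values were seen.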
